A study of Mus musculus with 18 samples.

Results

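Genes for 4 migration receptors and 3 integrin subunits were followed in mouse CD4+ T cells: the chemokine receptors Cxcr4, Ccr7 and Cxcr3, the sphingosine 1-phosphate receptor S1pr1, and the integrin subunits Itga4, Itgb7 and Itga6. They were chosen by name and are 7 of the 12394 genes with a probe set of their own on the array. Together they have 10 of the 20393 single-gene probe sets, and each gene was read through the one of its probe sets that was brightest on average. The CD4+ T cells were purified by negative selection from mice between 6 and 8 weeks old, and their RNA was hybridised to 18 Affymetrix 430A 2.0 arrays, 3 in each of 6 groups. Wild-type (WT) and ERRa-/- cells, the latter labelled as deficient in the orphan nuclear receptor ERRα and called knockout here, were either resting, taken straight from the mouse, or stimulated for 12 h through CD3 and CD28 with 10 µg of antibody. The remaining 2 groups were WT cells given 20 µM XCT790, an inverse agonist of ERRα, or 20 µM compound A, an ERRα inhibitor named only by its code. The protocol places both inhibitors in the 12 h stimulation, but the stimulation label of those 6 arrays says that there was none, so both WT states serve as controls for them. The labels name no strain, and do not say whether the deletion is limited to T cells or whether cells of several mice were pooled, so the p-values measure the spread between these samples.

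Lymphocytes reach lymph nodes, stay there and leave again by balancing signals from such receptors. Ccr7 reads Ccl19 and Ccl21 and brings naive T cells into the T zone of lymph nodes, while Cxcr4 reads Cxcl12, which marrow and lymphoid stroma make. Cxcr3 reads the interferon-induced chemokines Cxcl9, Cxcl10 and Cxcl11 and guides effector T cells to inflamed tissue. S1pr1 senses the high sphingosine 1-phosphate of blood and lymph and is required for T cells to leave lymphoid organs, and activated T cells are known to lower it for a time and stay. The integrin subunit α4, from Itga4, pairs with β7, from Itgb7, to bind MAdCAM-1 on vessels of the gut, and with β1 to bind VCAM-1. The α6 subunit, from Itga6, pairs with β1 or β4 to bind laminin.

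Values are log2 GCRMA signals, on which 1 unit is a doubling. They had been brought to the same distribution on every array, so a change is relative to the other genes measured. A signal under log2 4 is treated as background, and a fold change against a group whose arrays all lie under it is given as "at least", measured from log2 4. Values of different genes come from different probe sets and are not compared. Tests are limma's, two-sided, with p-values adjusted by the Benjamini-Hochberg method over the 6874 genes that reached log2 4 on at least 3 arrays, and an adjusted p under 0.05 counts as passed. Errors beside differences are standard errors from that fit, with n = 3 arrays a group. All 7 genes were tested, but Itga4 met the limit through its resting arrays alone, so its difference between resting and other cells was built into being tested. For it, and for listed genes that met the limit through resting or through cultured arrays alone, that difference is a description and has no p-value here. In these bulk samples, fewer cells of a type and less RNA per cell cannot be told apart.

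The labelled cell type was borne out by 11 T cell markers, among them Cd3e, Cd4 and Cd28, which lay at or above log2 4 on every array. Their mean ran from 11.27 to 12.38 and was lowest with XCT790. Resting knockout array 1 had a mean of 11.80, against 12.35 and 12.30 on the others of its group and 12.31 to 12.38 in resting WT cells. It was also the lowest resting array for Ccr7, Cxcr3, Itga4, Itgb7 and Itga6, but not for Cxcr4 or S1pr1. The part of this in the resting genotype differences was not tested. Markers of other cells also differed between groups. The mean of 14 macrophage markers was 6.95 to 9.19 on the 6 resting arrays, with 13 of 14 at or above log2 4 in both genotypes, and at most 2.91 on the other 12. The mean of 10 neutrophil markers was 6.22 to 8.58 in resting knockout cells and 3.71 to 5.22 in resting WT cells, and that of 9 erythroid markers was 6.81 to 8.58 against 3.11 to 5.25. The mean of 11 B cell markers was 6.40 to 7.54 in resting WT, 5.86 to 5.98 in resting knockout and 4.33 to 5.24 in all other cells. The mean of 6 CD8 and natural killer markers was 4.73, 6.00 and 5.85 on the 3 resting knockout arrays. It was 5.25 to 5.63 in resting WT and 4.44 to 5.16 in all other cells, and the part of these markers was not tested. Stimulated knockout array 1 had a neutrophil mean of 5.04, against 2.63 and 2.82 on the other arrays of its group. The 5' probe set of the added dap control RNA separated the 6 untreated WT arrays, at 3.99 to 6.38, from the other 12, at 7.45 to 8.51. The 3' probe set of the same control did not separate them, at 10.57 to 11.89 and 10.68 to 11.67. Knockout and inhibitor groups cannot be told apart from the 5' split when compared with untreated WT cells. The targeted gene, Esrra, was lower in knockout cells by -0.87 at rest and -0.92 after stimulation on the log2 scale, with adjusted p = 2.16e-04 and 3.31e-04. It still read 4.30 to 4.71 on the 6 knockout arrays, above log2 4, and 5.25 to 5.51 on the 6 untreated WT arrays. Whether its probe set lies in the deleted part is not given in the sources used here.

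**Figure D1:**
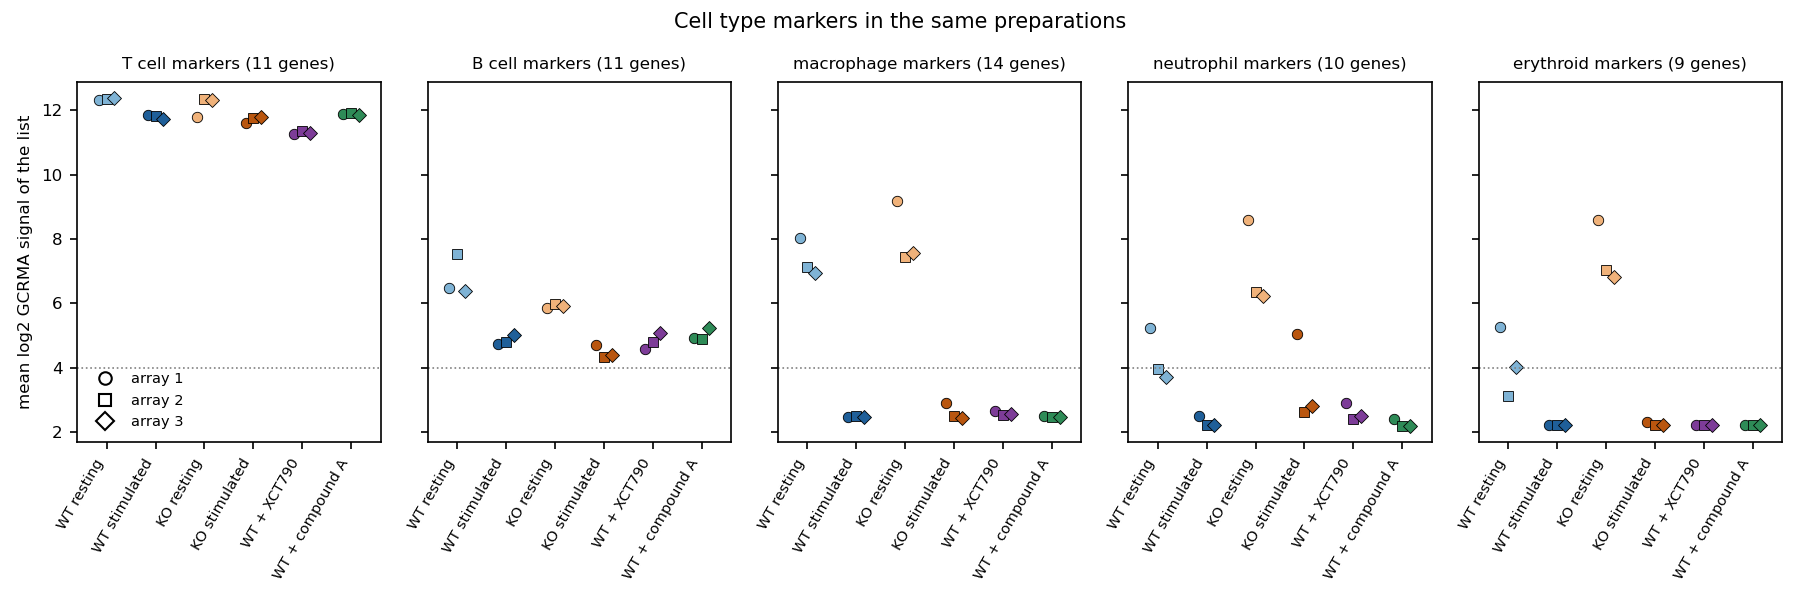
Mean log2 signal of marker lists of T cells and of other cell types (y axis) on each array, by group (x axis); each point is 1 array. The macrophage markers sit between 6.95 and 9.19 on resting arrays and at or under 2.91 on all others, while the T cell markers stay between 11.27 and 12.38.

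The promoters of Cxcr4 and Itgb7 are shown because these genes parted most clearly under XCT790, as described further on. The sequences run 5' to 3' from 250 bases before to 50 after the RefSeq start site, on GRCm38.p6, at chr1:128592250-128592549 (minus strand) for Cxcr4 and chr15:102231886-102232185 (minus strand) for Itgb7. Capitals mark matches to the 6 motifs searched on both strands: an ERR half-site (TNAAGGTCA), a FOXO site (GTAAACA), a KLF site (CCACACCC), a TATA box (TATAAA), a GC box (CCGCCC) and an ETS site (CACTTCCT). The last 3 motifs were added after the sequences had been seen.
Cxcr4: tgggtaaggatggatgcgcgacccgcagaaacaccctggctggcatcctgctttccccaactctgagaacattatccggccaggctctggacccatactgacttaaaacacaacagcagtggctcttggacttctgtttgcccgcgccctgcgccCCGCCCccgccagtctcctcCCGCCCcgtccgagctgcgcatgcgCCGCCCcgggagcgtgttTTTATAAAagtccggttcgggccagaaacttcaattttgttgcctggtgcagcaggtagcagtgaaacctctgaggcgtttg
Itgb7: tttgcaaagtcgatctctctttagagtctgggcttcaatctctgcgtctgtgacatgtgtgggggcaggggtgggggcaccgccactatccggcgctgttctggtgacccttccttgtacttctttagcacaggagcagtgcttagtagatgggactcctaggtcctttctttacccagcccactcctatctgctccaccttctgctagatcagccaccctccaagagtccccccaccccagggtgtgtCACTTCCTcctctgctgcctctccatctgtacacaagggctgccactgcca
The Cxcr4 promoter held 3 GC boxes, which begin at -95, -75 and -50 counted from the start site, and a TATA box at -30 that overlaps its reverse match at -32. A GC box occurred in 35.7% and a TATA box in 13.6% of 32851 promoters of this length. The Cxcr4 sequence was 59.3% G and C with 20 CpG dinucleotides, against 56.3% and 5 for Itgb7. The Itgb7 promoter held only an ETS site, at -1, a motif found in 4.07% of promoters. This window lies inside the gene's span, chr15:102215994-102233405, and not at its outermost 5' end. Sequence around that end was not searched. Promoters of Cxcr3, at chrX:101734098-101734397 (minus strand), and Itga4, at chr2:79255176-79255475 (plus strand), were searched as well. Cxcr3 held ETS sites at -231 and -17, and Itga4 held a KLF site at -59, a motif of 3.56% of promoters, and a reverse GC box at -114. The ERR letters, present in 1.28% of promoters, and the FOXO letters, present in 3.65%, were in none of these 4 windows, which says only that those letters are not there.

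Stimulation moved 6 of the 7 genes in WT cells: Cxcr4, Cxcr3, S1pr1, Itgb7 and Itga6 fell and Ccr7 rose, and the same directions passed in knockout cells. Itga4 went from measured to under log2 4, the difference through which it was tested, and is left out of these counts. In WT cells 38.4% of all tested genes fell and 37% rose, and in knockout cells 35.7% fell and 37.7% rose. The median log2 change of the 6 was -3.36 in WT and -2.78 in knockout cells, against -0.011 and 0.016 over all tested genes. Of the 70 values that 7 genes gave in 10 comparisons, 41 passed, 4 of them for Itga4 between resting and other cells.

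**Figure D2:**
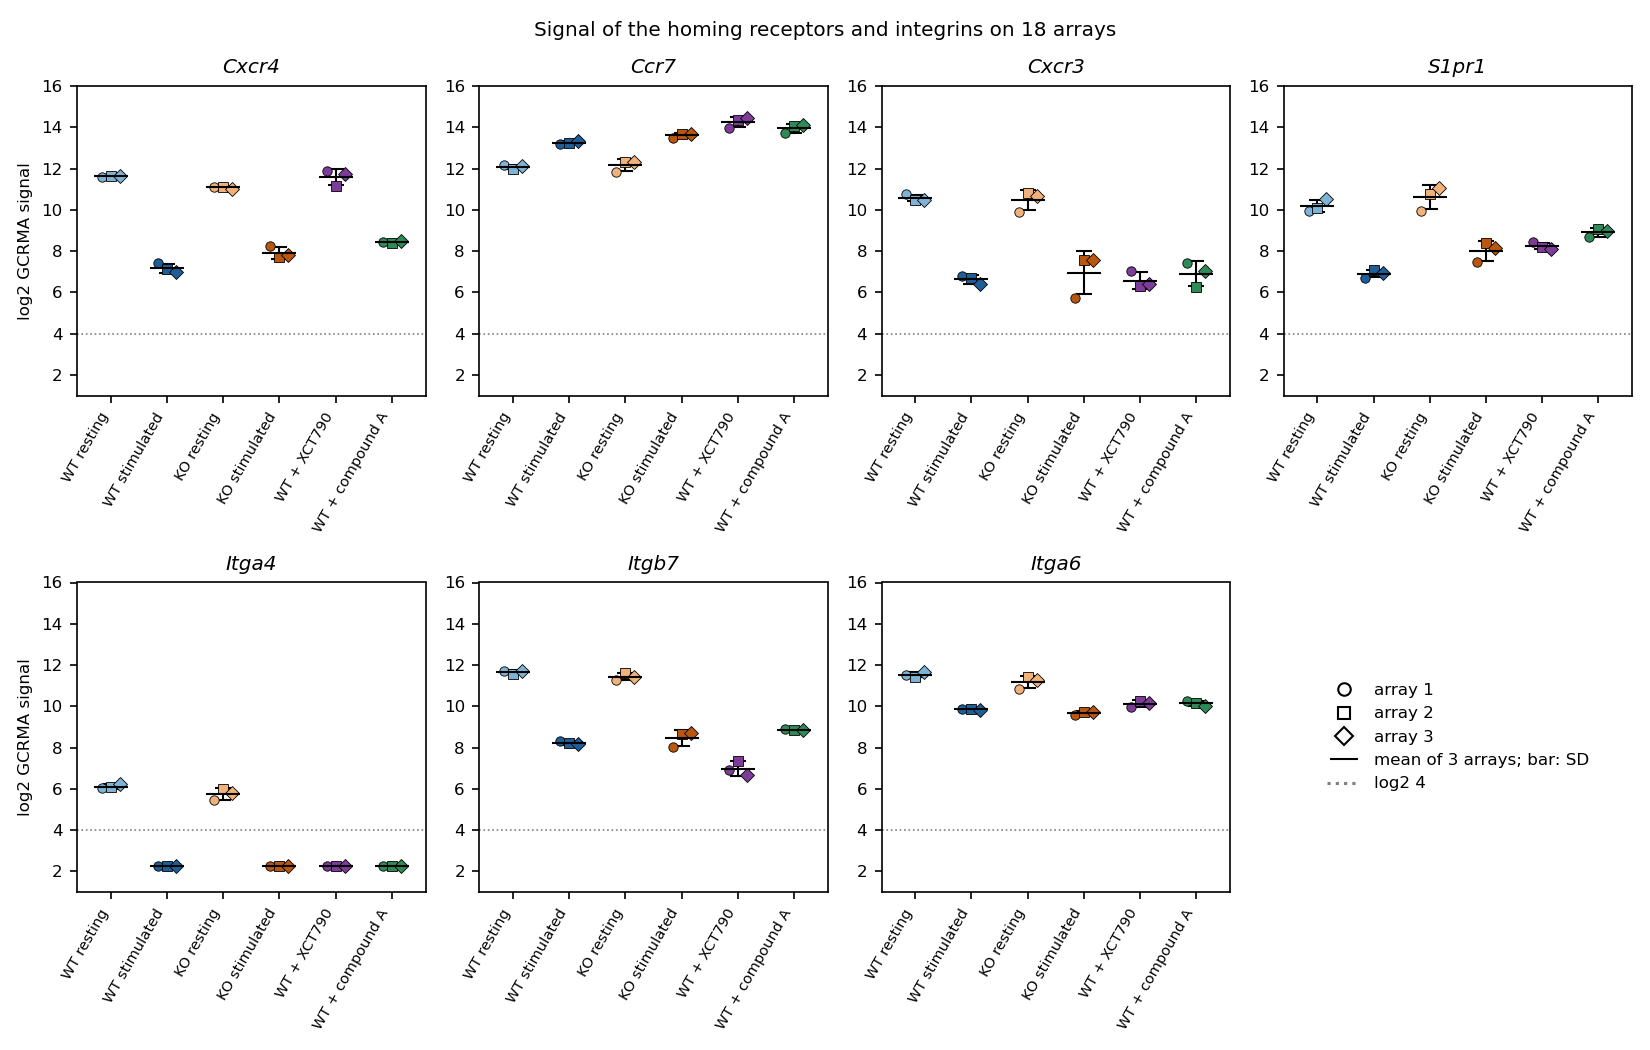
Log2 signal (y axis) of each of the 7 genes on all 18 arrays, by group (x axis); points are arrays, dashes are group means, error bars are SDs and the dotted line is log2 4. Cxcr4 lies between 11.14 and 11.88 with XCT790, near resting WT cells, while Itga4 lies under log2 4 on all 12 arrays that are not resting.

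Of the chemokine receptors Cxcr4, Ccr7 and Cxcr3, Cxcr4 (probe set 1448710_at) had the largest estimated fall in WT cells and Cxcr3 in knockout cells. The 95% intervals of the WT falls overlap, at -4.81 to -4.08 for Cxcr4 and -4.86 to -3.02 for Cxcr3. The genes were not tested against each other. Cxcr4 read 11.58, 11.65 and 11.62 on the 3 resting and 7.40, 7.15 and 6.97 on the 3 stimulated WT arrays. The difference was -4.45 ± 0.17 or 21.8-fold (adjusted p = 2.84e-11). In knockout cells it read 11.13, 11.11 and 11.02 at rest and 8.22, 7.71 and 7.80 after stimulation, a fall of 9.02-fold (-3.17 ± 0.17, adjusted p = 7.45e-10). The starting level was thus lower and the end level higher in knockout cells, with no overlap between the genotypes in either state. The resting difference was -0.54 ± 0.17 (1.45-fold, adjusted p = 0.0408) and the stimulated difference 0.74 ± 0.17 (1.67-fold, adjusted p = 0.0353). The smaller response of knockout cells was itself tested as a genotype by stimulation interaction and came to 1.27 ± 0.24 (95% interval 0.76 to 1.79, adjusted p = 0.0264). It was the single one of the 7 genes to pass that test, which 0.902% of all tested genes passed.

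These Cxcr4 genotype calls rest on small margins. The resting call was lost without any 1 of the 6 resting arrays, at adjusted p from 0.0619 to 0.106, while the difference stayed between -0.50 and -0.56. It was also lost with no filter on dim probe sets (0.0732) and with arrays shifted to a common median (0.0564). The stimulated call was lost without stimulated WT array 2 (0.139) or 3 (0.155), or stimulated knockout array 1 (0.153) or 3 (0.0583), with differences of 0.58 to 0.79, and with no filter (0.0735) or a fit on those 2 groups alone (0.105). The interaction was lost without resting WT array 2 (0.0607) or 3 (0.0658), stimulated WT array 2 (0.0780) or 3 (0.0736), or stimulated knockout array 3 (0.0501), at differences from 1.17 to 1.33. With the arrays numbered 2 and 3 alone, which leaves out knockout arrays 1, the highest in neutrophil and erythroid markers at rest, all 3 calls passed at -0.58, 0.69 and 1.27. The part of the marker and dap differences in these calls was not tested.

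The inhibitors separated widely on Cxcr4. With XCT790 it read 11.88, 11.14 and 11.76, which overlapped resting WT cells and lay 21.4-fold above stimulated WT cells (4.42 ± 0.17, adjusted p = 1.37e-10). Against resting WT cells the difference was -0.029, with a 95% interval from -0.39 to 0.34 (adjusted p = 0.886), and 71.9% of all tested genes passed in that comparison. With compound A it read 8.43, 8.38 and 8.50, 2.40-fold above stimulated (1.26 ± 0.17, adjusted p = 1.17e-04) and 9.08-fold below resting WT cells (adjusted p = 1.15e-09). At the same 20 µM, XCT790 arrays thus stood 8.90-fold above compound A arrays (3.15 ± 0.17, adjusted p = 6.13e-09). By group mean Cxcr4 ran from resting WT and XCT790, whose arrays overlap, through resting knockout, compound A and stimulated knockout down to stimulated WT, and none of the other neighbours overlapped.

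Ccr7 (1423466_at) was the gene that rose. It read 12.17, 11.97 and 12.11 in resting and 13.17, 13.24 and 13.32 in stimulated WT cells, a rise of 2.23-fold (1.16 ± 0.15, adjusted p = 5.92e-06). In knockout cells it went from 11.84, 12.34 and 12.33 to 13.46, 13.69 and 13.67, a rise of 2.70-fold (1.44 ± 0.15, adjusted p = 7.21e-07). The arrays of the 2 states did not overlap in either genotype. The stimulated genotypes did not overlap either, but their difference of 0.36 ± 0.15 did not pass (adjusted p = 0.257). Both inhibitors took Ccr7 above the stimulated level, the opposite direction to resting cells. It read 13.97, 14.34 and 14.44 with XCT790, 2.02-fold above stimulated WT cells (1.01 ± 0.15, adjusted p = 3.49e-05), and 13.71, 14.08 and 14.09 with compound A, 1.64-fold above them (0.72 ± 0.15, adjusted p = 0.00254). The inhibitors overlapped on Ccr7 and differed by 0.29, with a 95% interval of -0.028 to 0.62 (adjusted p = 0.116), which passed without XCT790 array 1 (0.43, adjusted p = 0.0303). Its order was XCT790 and compound A, overlapping, then stimulated knockout, stimulated WT, and the overlapping resting knockout and resting WT.

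Cxcr3 (1449925_at) fell with stimulation and read between 5.73 and 7.59 on all 12 arrays of cultured cells. It read 10.75, 10.48 and 10.47 at rest and 6.80, 6.69 and 6.38 after stimulation in WT cells, 15.4-fold lower (-3.94 ± 0.43, adjusted p = 9.74e-07). In knockout cells it read 9.91, 10.80 and 10.68 and 5.73, 7.59 and 7.56, 11.4-fold lower (-3.51 ± 0.43, adjusted p = 3.85e-06). Stimulated knockout array 1, which also carried the higher neutrophil markers, was the lowest of all 18 arrays for Cxcr3, and without it the knockout fall was -2.89 on the log2 scale (adjusted p = 2.86e-06). With the arrays numbered 2 and 3 alone, stimulated knockout cells were higher than stimulated WT cells by 1.04 (adjusted p = 0.0265), while over all arrays the difference was 0.33 (adjusted p = 0.760). Cxcr3 read 7.02, 6.29 and 6.41 with XCT790 and 7.44, 6.24 and 7.04 with compound A, which overlapped each other and stimulated WT cells. Differences from stimulated WT cells were -0.053 (95% interval -0.98 to 0.87) and 0.28 (-0.64 to 1.20), neither of which passed, with adjusted p = 0.938 and 0.671. The 4 lower groups overlapped their neighbours in the order of means, as did the 2 resting groups.

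S1pr1 (1423571_at), the egress receptor, read 9.93, 10.10 and 10.50 in resting and 6.71, 7.07 and 6.92 in stimulated WT cells, a fall of 9.68-fold (-3.28 ± 0.27, adjusted p = 5.08e-08). Knockout cells read 9.95, 10.79 and 11.07 at rest and 7.46, 8.40 and 8.16 after stimulation, a fall of 6.05-fold (-2.60 ± 0.27, adjusted p = 7.00e-07). All 3 stimulated knockout arrays lay above all 3 stimulated WT arrays. That difference, 1.10 ± 0.27 or 2.15-fold, stood just outside the threshold (adjusted p = 0.0505) and passed with the array number as a block (adjusted p = 0.0163) and without stimulated knockout array 1 (1.38, adjusted p = 0.0199). The resting genotypes overlapped, at 0.43 (adjusted p = 0.272), and the interaction of 0.68 ± 0.38 did not pass (adjusted p = 0.381).

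Both inhibitors left S1pr1 between the stimulated and the resting level. With XCT790 it read 8.43, 8.21 and 8.12, 2.55-fold above stimulated (1.35 ± 0.27, adjusted p = 4.97e-04) and 3.80-fold below resting WT cells (adjusted p = 1.58e-05). With compound A it read 8.68, 9.07 and 8.99, 4.04-fold above stimulated (2.01 ± 0.27, adjusted p = 1.18e-04) and 2.40-fold below resting WT cells (adjusted p = 7.84e-04). Unlike Cxcr4, S1pr1 had the higher mean with compound A, with no overlap of arrays. The difference between the inhibitors was -0.66, with a 95% interval of -1.24 to -0.082, and did not pass (adjusted p = 0.0532), though it did in a fit on those 2 groups alone (0.0127). In the order of means, resting knockout and resting WT overlapped, compound A stood apart, XCT790 and stimulated knockout overlapped, and stimulated WT was lowest.

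**Figure D3:**
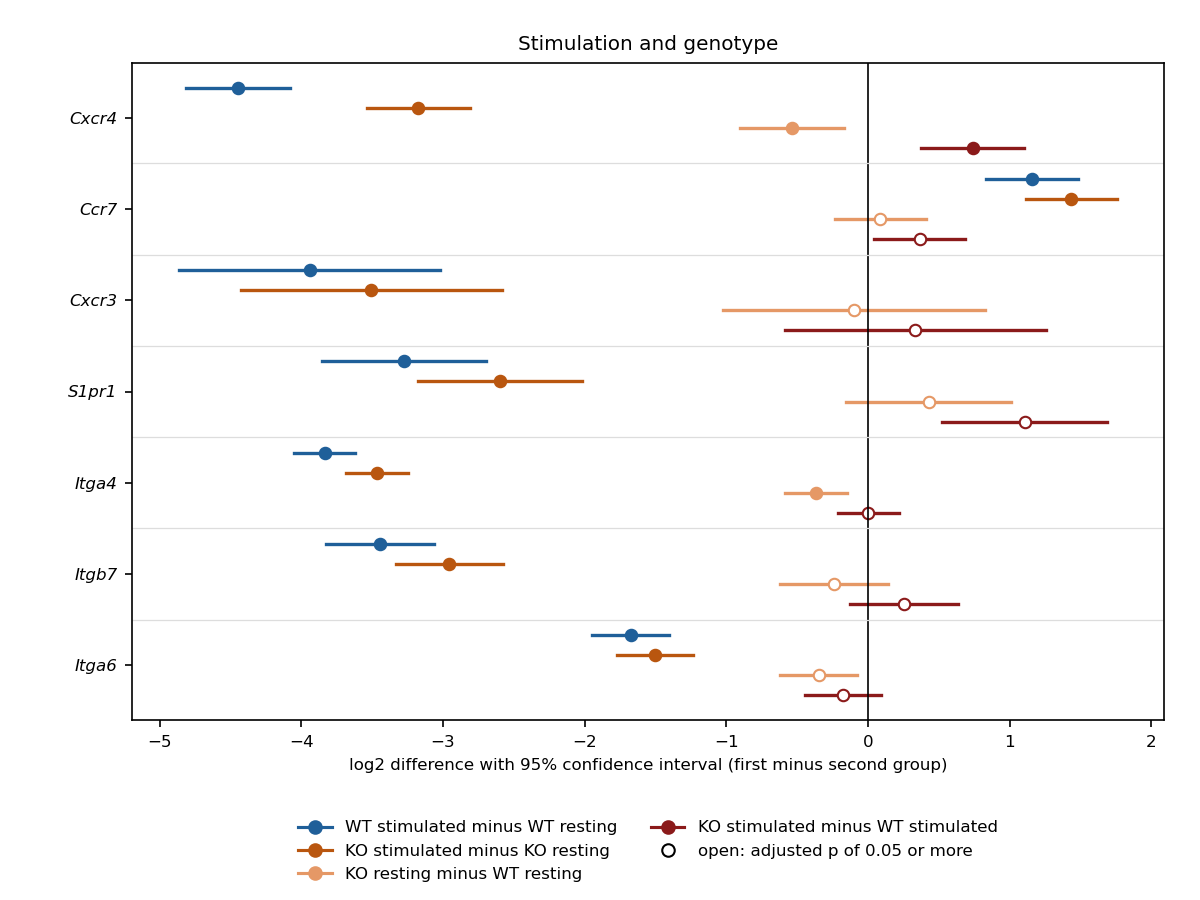
Log2 difference with its 95% interval from the limma fit for each of the 7 genes (3 arrays a group): the response to stimulation in WT and in knockout cells, and the knockout (KO) minus WT differences; open points did not pass. Ccr7 alone is above 0 in the response to stimulation, and Cxcr4 fell by 4.45 in WT and by 3.17 in knockout cells.

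Among the integrins, Itga4 (1421194_at) was measured above background in resting cells only. It read 6.03, 6.08 and 6.23 in resting WT and 5.44, 5.99 and 5.80 in resting knockout cells, and between 2.27 and 2.28 on all 12 other arrays. The stimulated level was thus at least 4.32-fold below the resting level in WT and at least 3.35-fold below it in knockout cells, which is given as a description. Levels with stimulation or either inhibitor are all under log2 4 and have no order. The 2 further Itga4 probe sets, 1450155_at and 1427615_at, were under log2 4 on all 18 arrays, so these values rest on 1 probe set. At rest the knockout arrays all lay below the WT arrays, by -0.37 ± 0.10 or 1.29-fold (adjusted p = 0.0232). That call was lost without resting WT array 2 (adjusted p = 0.0510) or 3 (0.0982), without resting knockout array 1 (0.0536, at a difference of -0.22), in a fit on those 2 groups alone (0.197) and with a trended, robust prior (0.150). The fit over all 18 arrays pools the error of all 6 groups. In the groups under log2 4 the Itga4 SDs were at most 0.0034, against 0.10 in resting WT and 0.28 in resting knockout cells. The ± 0.10 and its p-value therefore do not measure the resting spread alone. Averaged over its probe sets, Itga4 did not reach the limit and was not tested. Macrophage markers fell to background together with Itga4, and neutrophil and erythroid markers were higher in the resting knockout cells; their part in the result was not tested.

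Itgb7 (1418741_at), the partner of Itga4 in gut homing, stayed measurable in every group. It read 11.72, 11.58 and 11.69 at rest and 8.30, 8.20 and 8.16 after stimulation in WT cells, 10.9-fold lower (-3.45 ± 0.18, adjusted p = 4.02e-10). In knockout cells it read 11.26, 11.60 and 11.42 and 8.02, 8.68 and 8.71, 7.75-fold lower (-2.95 ± 0.18, adjusted p = 2.40e-09). The genotypes overlapped in both states, with differences of -0.24 at rest and 0.25 after stimulation (adjusted p = 0.347 and 0.536). The inhibitors moved it in opposite directions from stimulated WT cells. With XCT790 it read 6.90, 7.37 and 6.68, 2.35-fold below them (-1.24 ± 0.18, adjusted p = 2.56e-05) and 25.7-fold below resting WT cells (adjusted p = 2.14e-11). With compound A it read 8.91, 8.86 and 8.85, 1.57-fold above stimulated WT cells (0.65 ± 0.18, adjusted p = 0.0119). No array of one inhibitor overlapped the other, and XCT790 was 3.70-fold lower than compound A (-1.89 ± 0.18, adjusted p = 1.21e-06). Itgb7 was thus lowest with XCT790, the treatment under which Cxcr4 was near its resting level, and its highest groups, resting WT and resting knockout, overlapped.

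Itga6 (1422445_at) had the smallest fall of the 6. It read 11.51, 11.41 and 11.65 at rest and 9.87, 9.86 and 9.82 after stimulation in WT cells, 3.19-fold lower (-1.67 ± 0.13, adjusted p = 1.92e-08). In knockout cells it read 10.84, 11.40 and 11.29 and 9.57, 9.71 and 9.74, 2.84-fold lower (-1.50 ± 0.13, adjusted p = 7.31e-08). Its second probe set, 1422444_at, moved by -1.89 in WT and -1.67 in knockout cells. Knockout arrays lay below WT arrays at rest and after stimulation without overlap, by -0.35 and -0.18, and neither difference passed (adjusted p = 0.0675 and 0.547). The resting difference passed without resting knockout array 2 (-0.46, adjusted p = 0.0259) and with the mean of both probe sets (-0.42, adjusted p = 0.0483). With XCT790 it read 9.95, 10.28 and 10.14 and with compound A 10.24, 10.15 and 10.02. Both groups lay wholly above stimulated WT cells, by 0.27 ± 0.13 and 0.29 ± 0.13, but did not pass (adjusted p = 0.0706 and 0.0949). The XCT790 difference passed without XCT790 array 1 (0.36, adjusted p = 0.0337) and with the mean of both probe sets (0.34, adjusted p = 0.0459). The inhibitors overlapped and differed by -0.015 (95% interval -0.29 to 0.26, adjusted p = 0.952).

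By genotype, then, 2 of 7 genes passed at rest, Cxcr4 and Itga4, both lower in knockout cells, where 12.3% of all tested genes were lower and 6.74% higher. The error for Itga4 draws on groups at background, and it did not pass in a fit on the resting groups alone (adjusted p = 0.197). After stimulation 1 of 7 passed, Cxcr4, higher in knockout cells, where 1.59% of tested genes were higher and 0.596% lower. The array number as a block brought S1pr1 past the threshold there, for 2 of 7. With the arrays numbered 2 and 3 alone, 4 of 7 genes passed in each of these comparisons, while calls over all tested genes rose too. At rest 15.7% of tested genes were then lower and 9.62% higher, and after stimulation 2.33% were lower and 3.96% higher. The genes at rest were Cxcr4, Itga4, Ccr7 (0.29, adjusted p = 0.0127) and S1pr1 (0.63, adjusted p = 0.0162). After stimulation they were Cxcr4, Cxcr3, Ccr7 (0.40, adjusted p = 0.0102) and S1pr1 (1.28, adjusted p = 0.00176). The median log2 difference was -0.24 for the 7 genes at rest and 0.35 for the 6 other than Itga4 after stimulation, against -0.11 and -0.063 over all tested genes.

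Against stimulated WT cells, XCT790 raised Cxcr4, Ccr7 and S1pr1 and lowered Itgb7, where 29.1% of all tested genes were higher and 36.9% lower. Compound A raised Cxcr4, Ccr7, S1pr1 and Itgb7 and lowered none, where 14.5% were higher and 18.7% lower. The median of the 6 genes other than Itga4 was 0.64 with XCT790 and 0.68 with compound A, against -0.062 and -0.030 over all tested genes. Between the inhibitors at 20 µM, a comparison on one side of the dap split, 7 gene differences were computed and 2 passed after adjustment over all tested genes. Cxcr4 was higher and Itgb7 lower with XCT790, where 24.8% of tested genes were higher and 27.8% lower. The T cell marker mean was 11.27 to 11.36 with XCT790 and 11.85 to 11.90 with compound A, 7 of the 11 markers passing as lower with XCT790, and the part of this in the result was not tested. Both inhibitor groups share their stimulated controls with each other and with the genotype comparison. Side by side, the difference of stimulated knockout, XCT790 and compound A cells from stimulated WT cells was 0.74, 4.42 and 1.26 for Cxcr4. For S1pr1 it was 1.10, 1.35 and 2.01, and for Itgb7 0.25, -1.24 and 0.65, where the knockout differences of S1pr1 and Itgb7 did not pass.

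**Figure D4:**
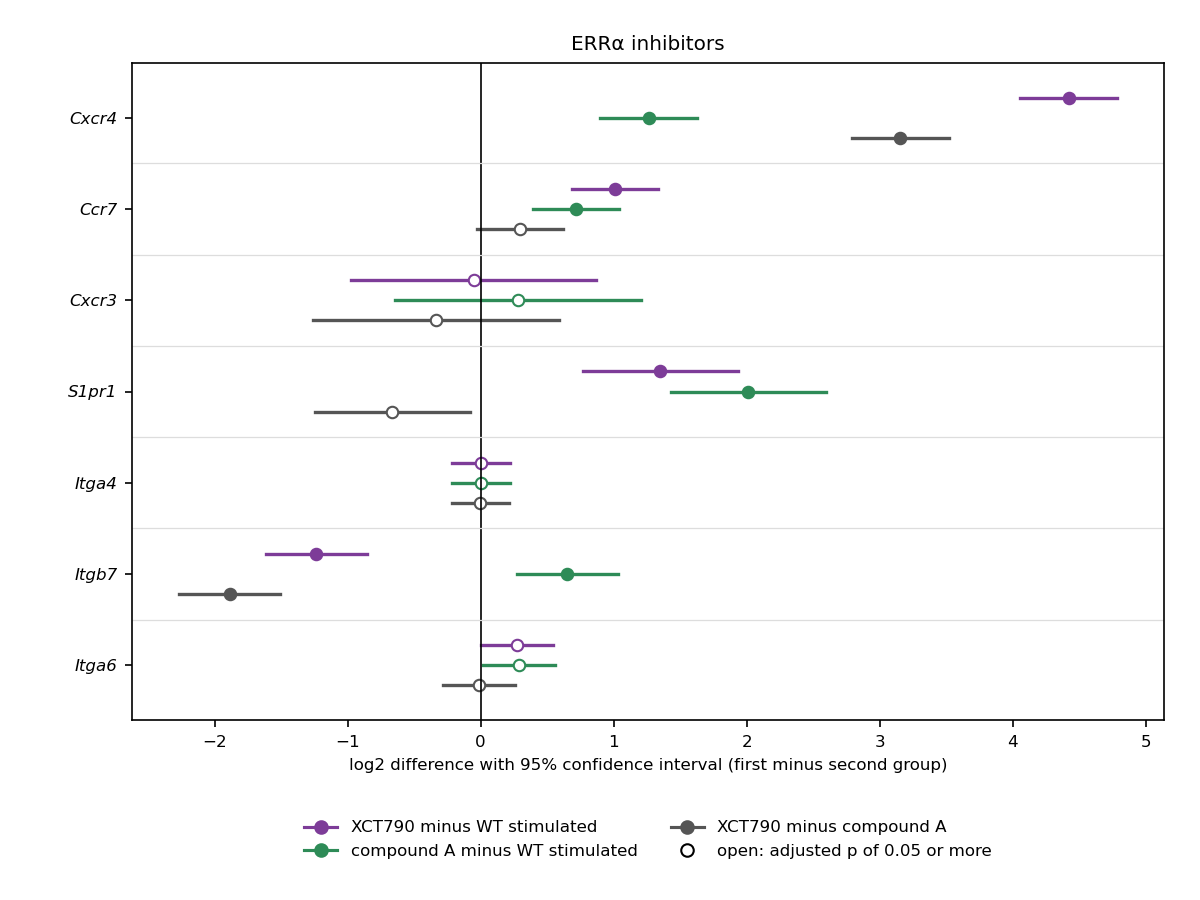
Log2 difference with its 95% interval for each of the 7 genes with XCT790 and compound A against stimulated WT cells and against each other (3 arrays a group); open points did not pass. Cxcr4 with XCT790 lies 4.42 above stimulated cells, and Itgb7 goes in opposite directions with the 2 compounds.

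Against resting WT cells, Ccr7 was higher and 4 genes, Cxcr3, S1pr1, Itgb7 and Itga6, were lower with XCT790, where 33.6% of tested genes were higher and 38.3% lower. With compound A, Ccr7 was higher and Cxcr4, Cxcr3, S1pr1, Itgb7 and Itga6 were lower, where 32.6% were higher and 37.1% lower. The inhibitor-treated cells labelled as not stimulated thus differed from resting cells in 5 and in 6 of the 6 genes other than Itga4.

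Other genes of the same pathways were read from lists, and some of their members, like Itga4, were tested because they are high in 1 state. List medians are given with genes under log2 4 at their bound, for the response of WT cells to stimulation, where the median over all tested genes was -0.011 and 38.4% fell and 37% rose. Of 19 other chemokine receptors, 6 were tested: 5 fell and 1 rose with stimulation in WT cells, at a median of -2.12. Of these, 2 falls and the rise were in genes tested through 1 state. Ccr9, the receptor for gut homing, was at least 19.2-fold lower, Ccr2 at least 5.52-fold lower and Cxcr6, the receptor for Cxcl16, 8.13-fold lower, while Ccr8 was at least 2.60-fold higher (adjusted p = 5.85e-08 for Ccr2 and 1.32e-07 for Cxcr6; Ccr9 and Ccr8 were tested through 1 state). In stimulated knockout cells Ccr2 was at least 1.32-fold higher and Cxcr6 2.48-fold higher than in stimulated WT cells (adjusted p = 0.0170 and 0.0201), and Ccr2 was 2.11-fold higher at rest as well (adjusted p = 0.0288). Ccr2 read 7.77, 7.53 and 7.33 in resting and 5.18, 4.01 and 3.64 in stimulated knockout cells, with array 1 highest in both groups, as for the neutrophil markers. On the arrays numbered 2 and 3 its differences were 1.02 at rest and 1.04 after stimulation (adjusted p = 0.00496 and 0.0138). On those arrays the neutrophil mean still differed at rest, at 6.37 and 6.22 in knockout and 3.96 and 3.71 in WT cells. The part of the markers in the Ccr2 differences was not tested. With XCT790, Cxcr6 was 3.19-fold higher and Ccr2 at least 1.30-fold higher than in stimulated WT cells and Cxcr5, which guides cells into B cell follicles, 2.39-fold lower (adjusted p = 8.54e-05, 3.25e-04 and 0.0121). Compound A moved 1 of the 6, Cxcr6, which was 1.84-fold higher (adjusted p = 0.0239). The Cxcr3 ligands Cxcl9 and Cxcl10 were the 2 tested of 6 chemokines that these receptors read, and both went the other way from Cxcr3. Cxcl9 was at least 24.8-fold higher and Cxcl10 14.9-fold higher in stimulated WT cells, Cxcl9 tested through cultured arrays alone and Cxcl10 with adjusted p = 6.65e-06. With XCT790 Cxcl9 was at least 24.8-fold lower and Cxcl10 2.70-fold lower than in stimulated cells (adjusted p = 4.50e-07 and 0.0229).

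Around S1pr1, 13 of 20 genes of sphingosine 1-phosphate handling and egress were tested, and 9 fell and 1 rose with stimulation in WT cells, at a median of -0.996, against 38.4% and 37% of all tested genes. Of the falls 1, that of Plpp3, was in a gene tested through resting arrays alone. The falls included S1pr4, a second receptor of the family (4.18-fold lower), the arrestins Arrb1 (14.0-fold lower) and Arrb2 (4.16-fold lower), which desensitise such receptors, and the coupled G protein Gnai2 (2.43-fold lower). Adjusted p-values were 3.78e-09, 7.36e-09, 1.78e-11 and 4.31e-10. Klf2, a transcription factor that drives S1pr1, and Foxo1, which drives Klf2, were 3.75-fold lower and 3.68-fold lower (adjusted p = 1.10e-05 and 1.27e-08). Klf2 read 13.02, 12.88 and 13.07 in resting WT, 10.89, 11.21 and 11.15 in stimulated WT, 11.31, 11.95 and 11.83 with XCT790 and 12.17, 13.03 and 13.12 with compound A. It was 3.22-fold higher with compound A than in stimulated cells (adjusted p = 3.21e-04), whereas with XCT790 the difference of 0.61 did not pass (adjusted p = 0.0533), and it was 2.11-fold lower with XCT790 than with compound A (adjusted p = 0.00319). Foxo1 changed by 0.38 with XCT790 (adjusted p = 0.0243) and by 0.33 with compound A, which did not pass (adjusted p = 0.0793). Arrb1 read 7.78, 7.86 and 7.95 with XCT790, 11.9-fold higher than in stimulated WT cells, which read 4.68, 3.79 and 4.40 (adjusted p = 4.74e-08). Its difference from resting WT cells, which read 8.28, 7.85 and 8.15, was -0.24 and did not pass (95% interval -0.80 to 0.33, adjusted p = 0.435). With compound A the difference from stimulated cells was 0.19 (adjusted p = 0.626), so Arrb1, like Cxcr4, stood far higher with XCT790 than with compound A, by 10.4-fold (adjusted p = 2.12e-07). Gna13 was 2.36-fold higher and Sgpl1, the lyase that breaks down sphingosine 1-phosphate, 2.07-fold higher with XCT790, while S1pr4 was 1.40-fold lower (adjusted p = 1.57e-08, 3.49e-07 and 0.00505). Sphk1, a kinase that makes sphingosine 1-phosphate, read 7.63, 6.61 and 4.59 on the 3 resting knockout arrays, and the other 15 arrays lay under log2 4. It was at least 4.84-fold higher in resting knockout than WT cells, a description only, since it was tested through those 3 arrays. Its knockout arrays follow the order of the neutrophil and erythroid markers, with array 1 highest in all 3, and their part was not tested. Arrb2 was 1.31-fold lower there (adjusted p = 0.00346). No gene of the 13 passed between the stimulated genotypes, where only 1.59% of all tested genes were higher and 0.596% lower. With the arrays numbered 2 and 3 alone, Klf2 and S1pr4 passed as higher in stimulated knockout cells. Their differences were 0.65 and 0.51 (adjusted p = 0.00291 and 0.00486), where 3.96% of all tested genes were higher and 2.33% lower.

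Of 23 other integrin subunits 6 were tested, and 4 fell and 1 rose with stimulation in WT cells, at a median of -0.33, against 38.4% and 37% of all tested genes. Of the falls 2 were in genes tested through resting arrays alone. Itgb1, which pairs with both Itga4 and Itga6, was 1.50-fold lower, and Itgb2, the β2 chain of leukocyte integrins, 3.01-fold lower, while its partner Itgal was 1.28-fold higher (adjusted p = 0.00334, 9.18e-08 and 3.54e-04). Itgal read only 4.13 to 4.88 on the 18 arrays, so its small rise lies close to background. Itgax, a myeloid subunit tested through resting arrays alone, was at least 1.41-fold lower, as macrophage markers fell. The part of those markers was not tested. With XCT790 Itgb1 was 1.34-fold higher than in stimulated cells and Itgav 2.61-fold higher, while Itgb2 was 1.52-fold lower (adjusted p = 0.0278, 2.16e-06 and 0.00157). None of the 6 passed with compound A against stimulated cells, where 14.5% of all tested genes were higher and 18.7% lower. By genotype none passed in either state. There 6.74% of all tested genes were higher and 12.3% lower at rest, and 1.59% and 0.596% after stimulation. With the arrays numbered 2 and 3 alone, Itgax, Itgb1 and Itgb5 passed at rest. The knockout differences were 1.23, 0.46 and -0.28 (adjusted p = 0.00319, 0.0491 and 0.0323), where 9.62% of all tested genes were higher and 15.7% lower. Itgb5 read close to log2 4, and the Itgax error draws on groups at background. The part of the marker differences was not tested. Itgb4, the other partner of Itga6, was under log2 4 on all 18 arrays and was not tested.

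Of 20 genes that switch integrins on or tether them, 16 were tested, and 12 fell and 1 rose with stimulation in WT cells, at a median of -0.80, against 38.4% and 37% of all tested genes. Rasgrp2, which activates the GTPase Rap1, was 6.02-fold lower, Apbb1ip, which encodes the Rap1 adaptor RIAM, 4.83-fold lower, the adaptor Fyb 3.97-fold lower and talin, Tln1, 2.60-fold lower (adjusted p = 2.86e-08, 2.40e-08, 7.99e-10 and 1.15e-09). Neither Rap1a, at -0.021, nor Rap1b, at -0.11, passed (adjusted p = 0.819 and 0.129). With XCT790 7 of the 16 were lower and 3 higher than in stimulated cells, where 36.9% and 29.1% of all tested genes were, and with compound A 2 were lower and 3 higher, where 18.7% and 14.5% were. Fyb was 2.78-fold higher with XCT790, while the focal adhesion protein zyxin, Zyx, was 3.03-fold lower, Vav1 1.79-fold lower and Itgb1bp1 2.11-fold lower (adjusted p = 5.24e-08, 1.04e-07, 2.70e-06 and 5.90e-06). In resting knockout cells Vcl, vinculin, was 2.49-fold higher, and Apbb1ip and Vav1 were 1.47-fold lower and 1.24-fold lower (adjusted p = 0.0139, 0.0410 and 0.0392). None of the 16 passed between the stimulated genotypes, where only 1.59% of all tested genes were higher and 0.596% lower. With the arrays numbered 2 and 3 alone, Cytip passed there as higher in knockout cells (0.27, adjusted p = 0.0404). Vcl read 7.73, 6.89 and 7.07 in resting WT and 9.54, 8.08 and 8.03 in resting knockout cells, and without the arrays numbered 1 its difference was 1.07 (adjusted p = 2.12e-04). Of 6 platelet markers 2 were tested. Pf4 read 7.23, 6.41 and 6.30 in resting WT and 9.22, 7.01 and 6.82 in resting knockout cells and did not pass (adjusted p = 0.449), while Ppbp was 2.34-fold higher in resting knockout cells (adjusted p = 0.0193). Gp9, Gp1bb, Gp5 and Treml1 were under log2 4 on all 18 arrays. Vcl, Pf4 and the neutrophil and erythroid means were highest on resting knockout array 1. On resting arrays 2 and 3 the erythroid mean was still 7.03 and 6.81 in knockout and 3.11 and 4.03 in WT cells. The part of these markers in the Vcl difference was not tested. The Vav1 difference did not pass without the arrays numbered 1 (-0.24, adjusted p = 0.0895).

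Of 18 genes for selectin ligands, mucin-like and immunoglobulin adhesion molecules, 12 were tested, and 7 fell and 2 rose with stimulation in WT cells, at a median of -0.44, against 38.4% and 37% of all tested genes. Vcam1, the ligand of the α4β1 integrin, was at least 77.4-fold lower, from 10.82, 9.96 and 10.03 to under log2 4; it was tested through resting arrays alone, and macrophage markers fell with it; their part was not tested. Icam2 was 2.48-fold lower, while Icam1, a ligand of Itgal and Itgb2, was 2.96-fold higher and the sialyltransferase St3gal4 2.76-fold higher (adjusted p = 3.79e-08, 4.77e-08 and 1.26e-07). With XCT790 7 of the 12 were lower and 1 higher than in stimulated cells, where 36.9% and 29.1% of all tested genes were. Icam1 was 2.75-fold lower, St3gal4 2.69-fold lower and Selplg, which encodes the selectin ligand PSGL-1, 1.91-fold lower, while the sheddase Adam17 was 1.81-fold higher (adjusted p = 2.50e-07, 3.82e-07, 2.51e-05 and 2.07e-07). With compound A Selplg was 1.50-fold higher than in stimulated cells (adjusted p = 0.00466), and 3 of the 12 were higher and 2 lower, where 14.5% and 18.7% of all tested genes were. In resting knockout cells Cd44 was 1.73-fold higher and Icam2 1.33-fold lower (adjusted p = 0.00685 and 0.0165), and both passed without the arrays numbered 1, at 0.82 and -0.33 (adjusted p = 0.00128 and 0.00522).

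**Figure D5:**
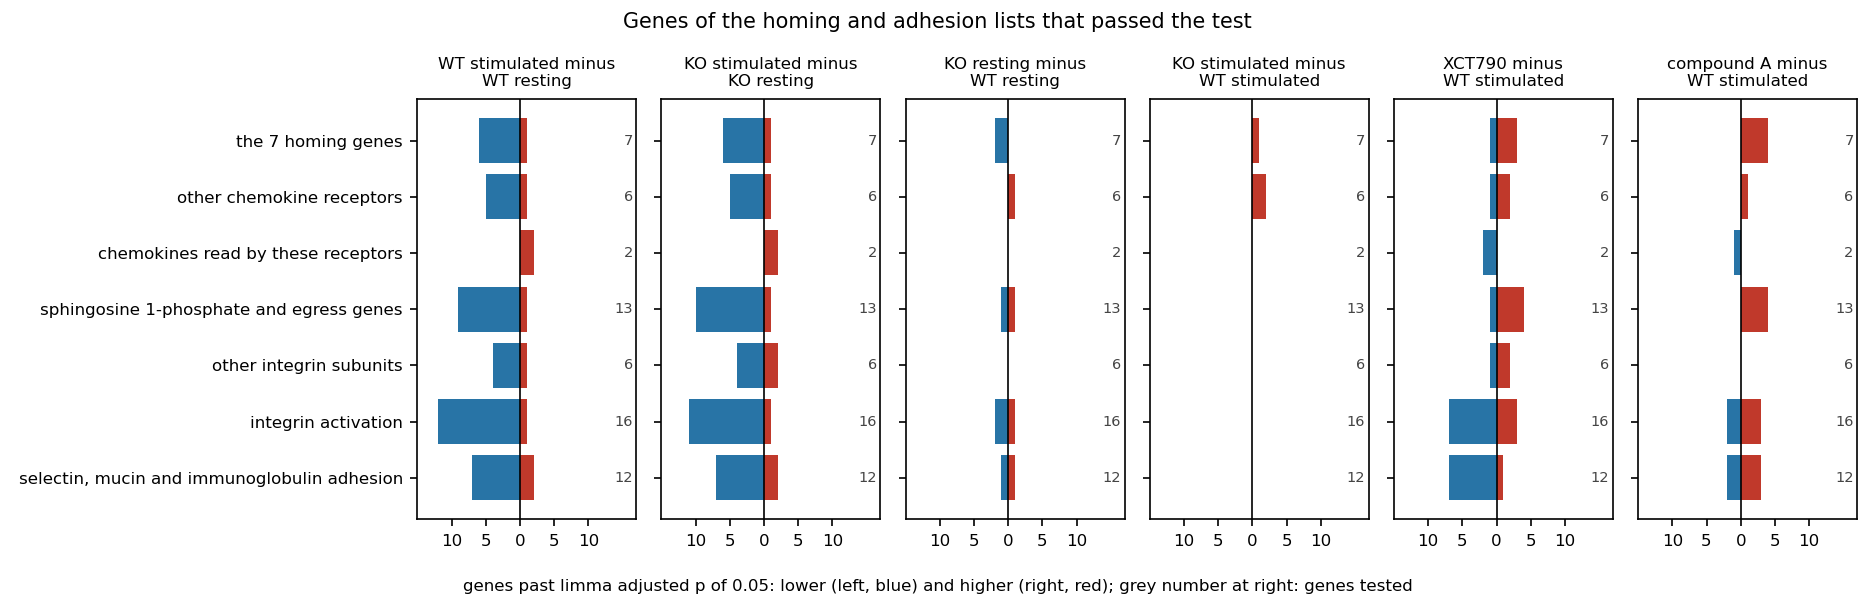
Number of genes of each list (y axis) that were lower (left) or higher (right) on the x axis at a limma adjusted p under 0.05, in 6 comparisons; the grey number is how many genes were tested. For the response to stimulation in WT cells, 38.4% of all tested genes were lower. The counts lower are 6 of 7 for the homing genes, 9 of 13 for egress genes and 12 of 16 for integrin activation. They include Itga4 and the egress gene Plpp3, whose falls were built into being tested through resting arrays alone.

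For each of the 7 genes, the 3 tested genes with the most similar profile were named by Pearson's r over the 18 arrays. The arrays fall into 6 groups and are not independent, so r is a description and carries no test. Cxcr4 was most like Cdkn1b, which encodes the cell cycle inhibitor p27 (r = 0.986), the splicing kinase gene Clk1 (0.983) and B230219D22Rik (0.981). Ccr7 was most like Hacd2 (0.984), Pim1 (0.982), a kinase gene, and N4bp1 (0.973). Cxcr3 was most like Slc25a53 (0.978), Cox20 (0.976) and Prkacb (0.975). S1pr1 had the least similar neighbours, Myl12b (0.957), Ppcdc (0.955) and the cytokine-receptor kinase gene Jak1 (0.950). Itgb7 was most like Mgst2 (0.997), Septin9 (0.992) and Arhgef18 (0.992), and Itga6 like Rnf167 (0.987), Entpd5 (0.985) and Rassf3 (0.984). For Itga4, at background on 12 arrays, the values of Gabrr2 (0.999), Dzip1 (0.999) and Cd7 (0.998) rest on the split between resting and other arrays. No gene was among the 3 nearest of more than 1 of the 7.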

How the data were processed

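Deposited were log2 signals, 1 per probe set, that the authors computed with GCRMA, per the submitters' processing notes. The sorted values are identical on all 18 arrays, from 1.83 to 15.37. The version and annotation used are not given in the sources used here, and arrays have no read depth, so their number limits the precision. From the 22690 probe sets, 64 controls and, by GEO's platform annotation, 1555 that name no gene and 691 that name several were dropped, and no symbol needed updating. Groups were taken from the sample titles. limma 3.58.1 in R 4.3.3 was fitted to all 18 arrays with 1 mean per group, no block, 12 residual and 2.22 prior degrees of freedom, on 6874 of 12394 genes at log2 4 or more on at least 3 arrays. The script was tested on simulated data. Figures used Python 3.11.15 and matplotlib 3.10.9.

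The genes, lists, tests and motifs were chosen with earlier results of these data known. Genes named are the 7 with every probe set, Esrra, up to 4 genes of smallest adjusted p of each pathway list in WT stimulation, resting genotype and XCT790, Klf2, Foxo1, Itgb1 and Itgb4, the 3 nearest profiles and markers; Ccr2, Cxcr6, Selplg and Klf2 under other comparisons, and Rap1a, Rap1b, Plpp3, Pf4 and Ppbp, were added after their values were seen. Promoters come from RefSeq on GRCm38.p6, where 4 of the 7 genes matched. Same-numbered arrays deviated together, with all 3 correlations above 0.1, in 5 comparisons: knockout stimulated against resting (0.239 to 0.336), knockout against WT at rest (0.254 to 0.645) and stimulated (0.148 to 0.442), and XCT790 (0.149 to 0.253) and compound A (0.287 to 0.474) against stimulated WT cells. The labels name no shared animal or day. The alternatives tried were leaving out each array, array weights, a prior that is trended and robust, fits to only the groups compared, the array number as a block, averaging a gene's probe sets, shifting arrays to equal medians, a floor of log2 6, and no filter. The arrays numbered 2 and 3 alone, for the 7 and the listed genes, were added after seeing the data.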

Additional observations from a re-analysis of the deposited data

Results flagged for a closer look

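The responses of WT and knockout cells to stimulation differed, by the limma interaction test, for Cxcr4. It fell by 21.8-fold in WT and 9.02-fold in knockout cells, an interaction of 1.27 on the log2 scale (adjusted p = 0.0264). This call was lost when certain single arrays were left out, at limma adjusted p from 0.0501 to 0.0780. The genotypes also lie on opposite sides of the dap split, whose part was not tested.

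Sphk1, a gene of the egress list, had an interaction of -3.94. It was above log2 4 on the 3 resting knockout arrays alone, at 7.63, 6.61 and 4.59, and was tested through them, so this difference was built into being tested and no p-value is given. It is set against signals under background and gives no fold.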

How the results depend on the processing

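Of the 41 values that passed, 33 kept their call under each of the 27 alternatives and left-out arrays that bear on their comparison, and none turned its sign. The values of Itga4 were not tested with the mean of all probe sets, and the 4 between resting and other cells kept their call under the rest, as the filter fixes. The 4 others were the Cxcr4 interaction, Cxcr4 and Itga4 between the resting genotypes and Cxcr4 between the stimulated genotypes. Of 29 values that did not pass, 14 passed under at least 1 alternative, and 5 turned sign with no call on either side. Of the 7 genes, the number that passed moved by over 1.5 times in 4 comparisons and by at most 1 gene in the 6 others. For the interaction (1 in the fit reported) it was 4 with array weights and 0 to 1 with an array left out. Between the resting genotypes (2) it was 1 with no filter, with a common median, with the compared groups alone and with a trended, robust prior, 4 with array weights and with the arrays numbered 2 and 3 only, and 0 to 2 with an array left out; with the mean of all probe sets it was again 2, Cxcr4 and Itga6. Between the stimulated genotypes (1) it was 0 with no filter and with the compared groups alone, 2 with the replicate block, a floor of log2 6, the mean of all probe sets, a common median and a trended prior, 5 with array weights, 4 with the arrays numbered 2 and 3 only, and 0 to 1 with an array left out. For XCT790 against compound A (2) it was 4 with the replicate block, where Ccr7 (adjusted p = 0.0399) and S1pr1 (0.0196) passed, 4 with array weights and 4 with the arrays numbered 2 and 3 only, and 2 to 3 with an array left out. The labels do not say what same-numbered arrays of that last comparison share, and their deviations correlated at 0.163, 0.052 and 0.223. Of all 6874 tested genes, 3617 passed between the inhibitors in the fit reported. That number was 3742 with the block, 5080 with array weights and 3905 with the arrays numbered 2 and 3 only. The block changed no other call of the 7 genes. The cause of these moves was not tested, and the array weights did not converge fully.

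Over all tested genes, the interaction count of 62 became 39 with a floor of log2 6, 123 with the block, 38 with the compared groups alone, 1222 with array weights, 574 with arrays 2 and 3 only and 22 to 141 with an array left out. The resting genotype count of 1307 became 176 with the groups alone, 2379 with array weights and 612 to 1487 with an array left out, and a common median moved its share of higher calls from 35.4% to 46.3%. The stimulated genotype count of 150 became 253 with the mean of probe sets, 1639 with array weights, 432 with arrays 2 and 3 only and 66 to 136 with an array left out. Without a filter the knockout stimulation count went from 5043 to 8199, and with array weights that of compound A from 2283 to 4048.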
